A study of Mus musculus with 6 samples.

Results

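The class II antigen presentation genes of the mouse, with Cd74 and Ciita, were followed in hematopoietic stem cells with and without Elovl6, the elongase that extends palmitate-class fatty acids. The set holds 10 of the 51826 genes in the deposited table: the chains H2-Aa, H2-Ab1, H2-Eb1 and H2-Ea-ps, the invariant chain Cd74, the peptide-loading genes H2-DMa, H2-DMb1, H2-DMb2 and H2-Ob, and the transactivator Ciita. The genes were chosen by name, with their KO and WT expression values in these same libraries already known, so the differences between genotypes given for them are a description that no test supports. RNA was read in 4 libraries from Elovl6 knock-out (KO) mice and 2 from wild-type (WT) mice, all of bone marrow CD34-KSL cells. These are Kit-positive, Sca-1-positive, lineage-negative cells without CD34, a fraction enriched for long-term stem cells. The labels give neither the knock-out allele nor the strain, age, sex or treatment of either genotype, and do not say whether the libraries came from separate animals. Any p-value therefore measures only the spread between these libraries.

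MHC class II molecules are pairs of an alpha and a beta chain that carry peptides from endosomes to the cell surface, where CD4-positive T cells read them. The invariant chain, the product of Cd74, holds new pairs in the endoplasmic reticulum and leads them to endosomes, where the DM pair exchanges its remnant for peptide and the DO pair restrains DM. Ciita is the transactivator that joins the proteins bound at the X and Y boxes of class II promoters, and it sets class II expression in B cells, dendritic cells and macrophages, while stem and progenitor cells are known to carry class II at lower levels.

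The promoters of the chains, DM and DO genes share these boxes, so the letters of the stretches that hold a Y box core are shown for 5 genes. They are RefSeq sequence on build GRCm38.p6, each 80 bases long and read 5′ to 3′ on the gene's own strand. H2-Aa lies on the minus strand at chr17:34287853-34287932. The others lie on the plus strand, H2-Eb1 at chr17:34305747-34305826, H2-DMb1 at chr17:34153069-34153148, H2-DMb2 at chr17:34145098-34145177 and H2-Ob at chr17:34238787-34238866. Capitals mark the Y box core GATTGG, the reverse of the CCAAT sequence that NF-Y binds, and, where present, AACNNATGA in the X box.
H2-Aa: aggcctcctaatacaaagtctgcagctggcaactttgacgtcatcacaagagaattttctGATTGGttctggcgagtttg
H2-Eb1: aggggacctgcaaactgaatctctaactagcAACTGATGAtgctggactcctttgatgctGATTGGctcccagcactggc
H2-DMb1: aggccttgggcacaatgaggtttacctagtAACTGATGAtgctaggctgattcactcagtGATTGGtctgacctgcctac
H2-DMb2: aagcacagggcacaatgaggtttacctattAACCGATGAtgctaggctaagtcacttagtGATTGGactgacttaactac
H2-Ob: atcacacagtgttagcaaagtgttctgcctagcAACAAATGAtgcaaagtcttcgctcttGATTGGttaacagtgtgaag

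The Y core began 49 bases before the RefSeq start site in H2-Aa, 60 in H2-Eb1, 62 in H2-DMb1, 91 in H2-DMb2 and 58 in H2-Ob. In the 4 genes with both capitalised motifs, 20 bases lay between them in H2-Eb1, 21 in H2-DMb1, 21 in H2-DMb2 and 18 in H2-Ob. Promoter windows of 250 bases before to 50 after a start were available for 6 of the 10 genes, in 7 windows, and were searched on both strands. The core GATTGG was in a window of all 6 genes with one, against 16.1% of all 32851 windows. The X1 core AGNNACNGA, in 3 of them, was in 17.7% of all windows, and with ATTGG following within 40 bases it was in 0.423%, H2-Eb1 and H2-DMb1 among them. The motif AACNNATGA, whose first letters overlap AGNNACNGA in H2-Eb1 and H2-DMb1, was chosen after the sequences were seen. It was in 2.85% of all windows, and in 0.116% with ATTGG following within 40 bases, as in the 4 genes above. The RefSeq start is 119 bases from the gene start in the deposited table for H2-DMb1 and 1942 bases for H2-DMb2. In both, the Y core shown lies inside the deposited gene. The RefSeq starts of H2-DMa are 12350 and 9664 bases from its deposited start, and only the window at 9664 bases held GATTGG. The core was thus not shown near the deposited start of H2-DMa or H2-DMb2. These matches describe letters and are no measure of binding in these cells.

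Depth ranged from 2121240 to 5137628 assigned counts in the KO libraries and was 3569449 and 3812524 in the WT libraries. Elovl6 had 106, 61, 56 and 18 counts in KO replicates 1 to 4, against 111 and 147 in the WT libraries, or 15.6 ± 5.87 CPM (counts scaled to a common library size; SD, n = 4) against 34.4 ± 5.47 CPM (SD, n = 2). Every KO library was below both WT libraries, but reads over the whole gene check little when the removed part is not given. The stem cell genes Kit (967 to 1444 CPM in KO, 1224 and 1303 CPM in WT), Hlf, Mecom and Procr were read in every library, and Hoxb5 was at 1.04 CPM or lower. Across all genes, 19 of 11969 tested passed an adjusted p of 0.05 in edgeR's quasi-likelihood test, which is 0.159%.

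Among the 10 genes, the H2-Ea-ps chain was read in KO libraries alone, the H2-Aa chain and Ciita were higher in every KO library than in either WT library, and H2-DMb1 was lower in every KO library. The other 6, Cd74 among them, had overlapping values. By that count 3 genes lay above WT and 1 below, while 10% of all tested genes lay above and 10.3% below, 20.3% in all. Of the 10 genes, 1, H2-Ea-ps, passed the genome-wide threshold, beside the 0.159% of all tested genes, and nothing is read from that count because these values were known when the genes were chosen. Log2 fold changes were above 0 in 6 genes and below 0 in 4, with a median of 0.12, or 0.12 with H2-Ea-ps at its lower bound. Over all tested genes the median was 0.008 and 51.0% were above 0.

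**Figure D1:**
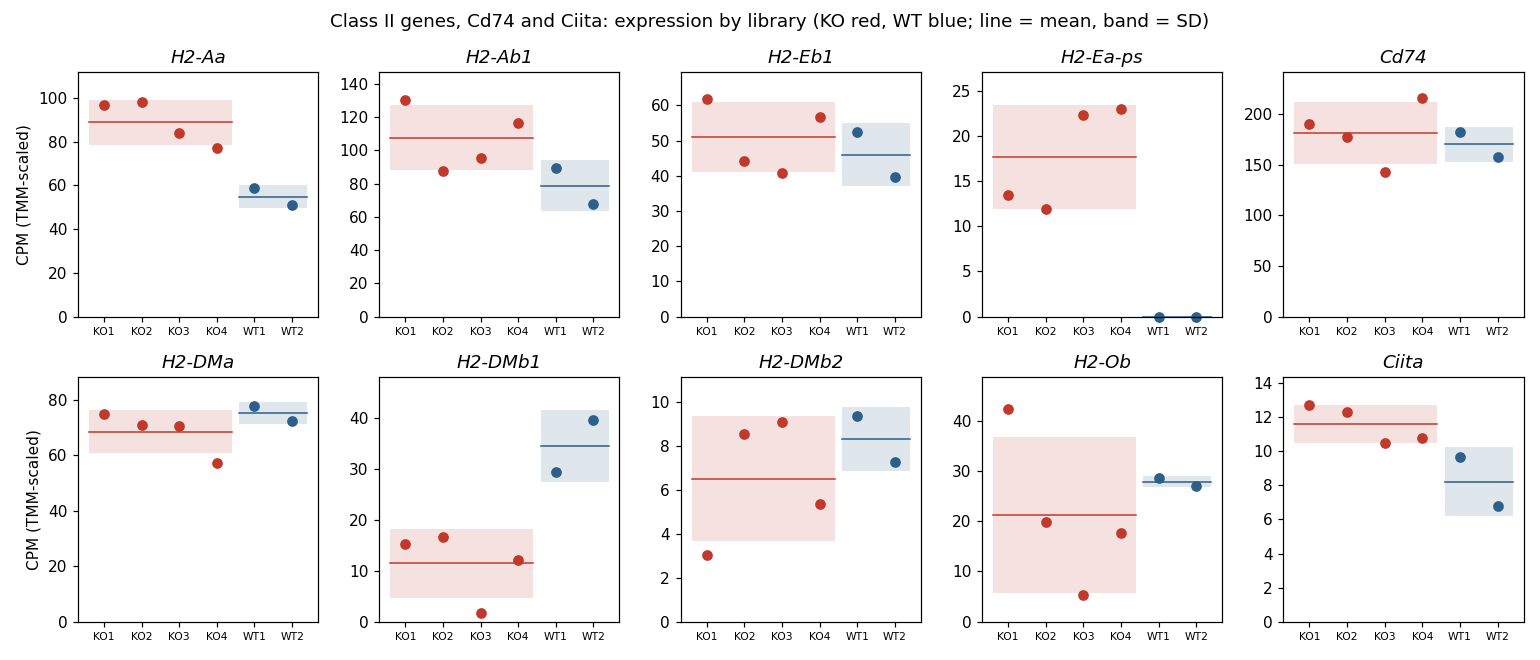
CPM (TMM-scaled, linear axis from 0) of the 10 genes in each library, KO replicates 1 to 4 in red and WT replicates 1 and 2 in blue. Lines are group means and bands 1 SD. H2-Ea-ps is at 0 in both WT libraries, H2-Aa and Ciita lie above WT in all 4 KO libraries, H2-DMb1 lies below, and the other 6 genes overlap.

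H2-Aa (ENSMUSG00000036594, chromosome 17, 34282744 to 34287827, minus strand, mm10) encodes the alpha chain of the A pair. It was at 96.8, 98.1, 83.8 and 76.8 CPM in KO replicates 1 to 4, against 58.6 and 51.1 CPM in WT replicates 1 and 2. All 4 KO libraries lay above both WT libraries. The means were 88.9 ± 10.3 CPM in KO (SD, n = 4) and 54.9 ± 5.36 CPM in WT (SD, n = 2), a log2 fold change of 0.70 (SE 0.18).

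Its partner H2-Ab1 (chromosome 17, 34263209 to 34269418, plus strand), the beta chain of the A pair, was at 130.5, 87.9, 95.7 and 116.5 CPM in KO and at 89.5 and 68.0 CPM in WT. Here 1 KO library, replicate 2, fell between the WT values and the other 3 lay above both. The means were 107.6 ± 19.5 CPM in KO and 78.7 ± 15.2 CPM in WT, a log2 fold change of 0.45 (SE 0.20). Per kilobase of exon, H2-Aa stood at 0.648, 0.975, 0.765 and 0.576 of H2-Ab1 in KO, against 0.572 and 0.656 in WT, so the ratio of the pair overlapped between genotypes.

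H2-Eb1 (chromosome 17, 34305877 to 34316199, plus strand) encodes the beta chain of the E pair. It was at 61.9, 44.3, 40.8 and 56.8 CPM in KO and at 52.3 and 39.6 CPM in WT. KO replicates 2 and 3 lay between the WT values, and the log2 fold change was 0.15 (SE 0.22). The 3 protein-coding chains summed to 247.5 ± 30.5 CPM in KO (SD, n = 4) and 179.5 ± 29.5 CPM in WT (SD, n = 2), 1.38-fold. In bulk RNA such a difference in level cannot be divided between more cells that carry the transcript and more transcript per cell.

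H2-Ea-ps (chromosome 17, 34342933 to 34344643, minus strand) is the gene of the E alpha chain. The annotation lists it as a polymorphic pseudogene, since the gene is intact in some mouse haplotypes and not transcribed in others, the b haplotype of C57BL/6 among them. Its counts were 67, 57, 64 and 47 in KO and 0 and 0 in WT. In CPM that is 13.5, 11.9, 22.3 and 23.0 in KO, with no WT library above 0. Against a floor of 3 counts over the WT group, or 0.402 CPM, the KO mean of 17.7 ± 5.80 CPM (SD, n = 4) was at least 44.1-fold higher. Over the KO libraries, 37 of the exon reads crossed exon junctions, at 11, 1, 20 and 5 in replicates 1 to 4. As part of the exon reads, they are no separate measure. Reads in introns, counted apart from these, came to 62 over the KO libraries and to 0 in WT. Per kilobase of exon, H2-Ea-ps stood at 0.377, 0.464, 0.944 and 0.699 of H2-Eb1, its partner chain, in KO. Whether the KO and WT mice share a haplotype was not tested. It was also not tested whether reads of the other H2 genes were counted alike in both genotypes. The gene did not pass the genome-wide threshold without WT replicate 1 (adjusted p = 0.145, edgeR) or without WT replicate 2 (adjusted p = 0.0769, edgeR), when the bound was 22.6-fold and 21.3-fold.

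Cd74 (chromosome 18, 60803848 to 60812646, plus strand) encodes the invariant chain, and its level per exon length was the highest of the 10 genes in both genotypes. It was at 190.4, 177.2, 142.4 and 215.8 CPM in KO and at 182.2 and 157.9 CPM in WT. The KO libraries reached both above and below the WT values, with means of 181.5 ± 30.6 CPM in KO and 170.0 ± 17.2 CPM in WT and a log2 fold change of 0.09 (SE 0.17). The sign of that value turned without KO replicate 4 (-0.001) and without WT replicate 2 (-0.011).

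The DM pair has the H2-DMa product as its alpha chain and the product of H2-DMb1 or H2-DMb2 as its beta chain. H2-DMa (chromosome 17, 34135182 to 34139101) was at 75.0, 71.0, 70.5 and 57.3 CPM in KO and at 77.9 and 72.4 CPM in WT. KO replicate 4 was lowest and replicate 1 lay between the WT values, with a log2 fold change of -0.13 (SE 0.17). H2-DMb1 (chromosome 17, 34153072 to 34160230) was at 15.3, 16.7, 1.75 and 12.2 CPM in KO and at 29.5 and 39.6 CPM in WT. Every KO library was below both WT libraries, and KO replicate 3, with 5 counts, was far below the other KO libraries. The means were 11.5 ± 6.77 CPM in KO and 34.5 ± 7.17 CPM in WT, a log2 fold change of -1.55 (SE 0.52), and of -1.21 without KO replicate 3.

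H2-DMb2 (chromosome 17, 34143307 to 34151553) was at 3.03, 8.56, 9.08 and 5.38 CPM in KO and at 9.36 and 7.29 CPM in WT, which overlap. The DMb genes are close copies that can share reads: 87.8% of the exon reads of H2-DMb1 and 86.3% of those of H2-DMb2 were placed uniquely. Summed over both genes the level was 18.4, 25.3, 10.8 and 17.6 CPM in KO and 38.8 and 46.9 CPM in WT. The sum, in WT mostly H2-DMb1 itself, was lower in every KO library, at 0.42 of WT by the group means. It still leaves out shared exon reads that cross no junction. With all exon reads counted, the log2 fold change was -1.42 for H2-DMb1 and -0.34 for H2-DMb2. Per kilobase, H2-DMb1 stood at 0.226, 0.26, 0.0274 and 0.236 of H2-DMa in KO and at 0.418 and 0.604 in WT, while H2-DMb1 over H2-DMb2 overlapped, from 0.221 to 5.83 in KO against 3.62 and 6.25 in WT.

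H2-Ob (chromosome 17, 34238903 to 34245907), the beta chain of DO, was the most variable of the 10 genes among KO libraries after H2-DMb1, from highest to lowest library. It was at 42.4, 19.8, 5.24 and 17.6 CPM in KO and at 28.6 and 27.1 CPM in WT. KO replicate 1 was above both WT libraries and the other 3 KO libraries were below both. On the log2 scale the fold change was -0.35 (SE 0.54), and -0.97 without KO replicate 1. H2-Oa, the alpha chain of DO and not among the 10 genes, had a log2 fold change of -0.12 (SE 0.39, adjusted p = 0.941, edgeR). H2-Eb2 had 8 counts in all and was not tested.

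Ciita (chromosome 16, 10488178 to 10527564, plus strand) was at 12.7, 12.3, 10.5 and 10.8 CPM in KO and at 9.64 and 6.77 CPM in WT. All 4 KO libraries lay above both WT libraries, by a small margin at the edge: 30 counts in KO replicate 3 and 35 in WT replicate 1 give 10.5 and 9.64 CPM. The means were 11.6 ± 1.11 CPM in KO and 8.20 ± 2.02 CPM in WT, a log2 fold change of 0.50 (SE 0.36). For this gene 54.5% of exon reads were placed uniquely, and with all exon reads counted the genotypes overlapped and the log2 fold change was 0.22. For 7 of the 10 genes, every exon read was placed uniquely.

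**Figure D2:**
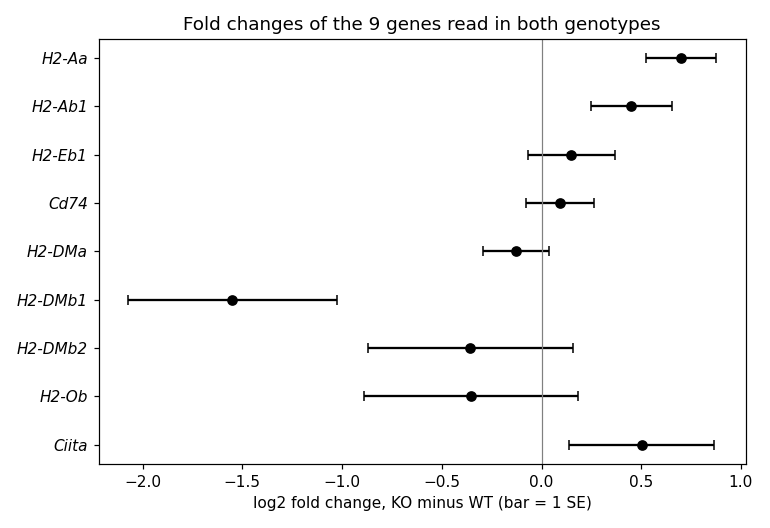
Log2 fold change of KO minus WT (edgeR, bars 1 SE) for the 9 genes with reads in both genotypes, in order of role. H2-Aa at 0.70 and H2-DMb1 at -1.55 are the values farthest from 0 on either side, and Cd74 and H2-DMa lie close to 0.

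Levels were ordered per length, as CPM per kilobase of exon. In KO, Cd74 stood first at 129 ± 21.7, then H2-Ab1 at 65.7 ± 11.9, H2-Aa at 47.4 ± 5.51, H2-Eb1 at 43.0 ± 8.47 and H2-DMa at 41.7 ± 4.71 (SD, n = 4). Below these came H2-Ea-ps at 25.8 ± 8.45, H2-DMb1 at 7.75 ± 4.56, H2-Ob at 6.74 ± 4.90, H2-DMb2 at 3.81 ± 1.66 and Ciita at 2.20 ± 0.211. Ranges of neighbours overlapped from H2-Aa to H2-DMa and from H2-DMb1 to Ciita, so the order within each of these runs is not set. In WT the order was Cd74 at 121 ± 12.2, H2-Ab1 at 48.1 ± 9.28, H2-DMa at 45.8 ± 2.37, H2-Eb1 at 38.8 ± 7.59 and H2-Aa at 29.3 ± 2.86 (SD, n = 2). H2-DMb1 at 23.2 ± 4.83, H2-Ob at 8.84 ± 0.345, H2-DMb2 at 4.87 ± 0.854 and Ciita at 1.56 ± 0.385 followed. In WT the neighbours from H2-Ab1 to H2-Eb1 overlapped.

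**Figure D3:**
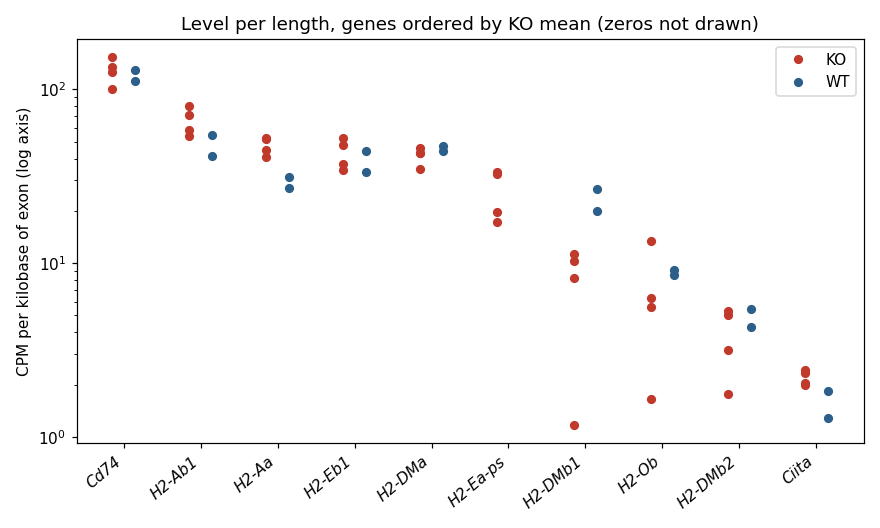
CPM per kilobase of exon (log axis) for each library, KO in red left of WT in blue, genes ordered by KO mean. Cd74 has the highest means, 129 in KO and 121 in WT. Ciita has the lowest means of the genes read in both genotypes, though single KO libraries of H2-DMb1, H2-Ob and H2-DMb2 lie below it. The H2-Ea-ps zeros in WT are not drawn.

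Reads in introns give a further view of the same genes, since unspliced RNA carries them. The ratio of unique intron to unique exon reads of H2-Ab1 was 0.159, 0.195, 0.179 and 0.109 in KO and 0.0523 and 0.0575 in WT. All KO libraries were above both WT libraries. For Cd74 the ratio was 0.499, 0.574, 0.551 and 0.374 in KO and 0.356 and 0.264 in WT, again with no overlap, while its exon level overlapped. H2-Aa had 0.271, 0.291, 0.229 and 0.134 in KO against 0.127 and 0.153 in WT, where KO replicate 4 lay between the WT libraries. H2-Eb1 overlapped, at 0.244, 0.189, 0.120 and 0.241 in KO against 0.200 and 0.112 in WT. Of the 7 genes with enough reads to measure, 2, H2-Ab1 and Cd74, had a higher ratio in every KO library, beside 9.91% of the 8587 genes measured. Over all genes the ratio was 0.919, 1.16, 1.43 and 1.73 in KO replicates 1 to 4 against 1.07 and 1.22 in WT, which overlap, and KO replicate 4, the highest there, was the lowest KO library for H2-Aa, H2-Ab1 and Cd74. The part of library-wide intron content in these ratios was not tested.

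**Figure D4:**
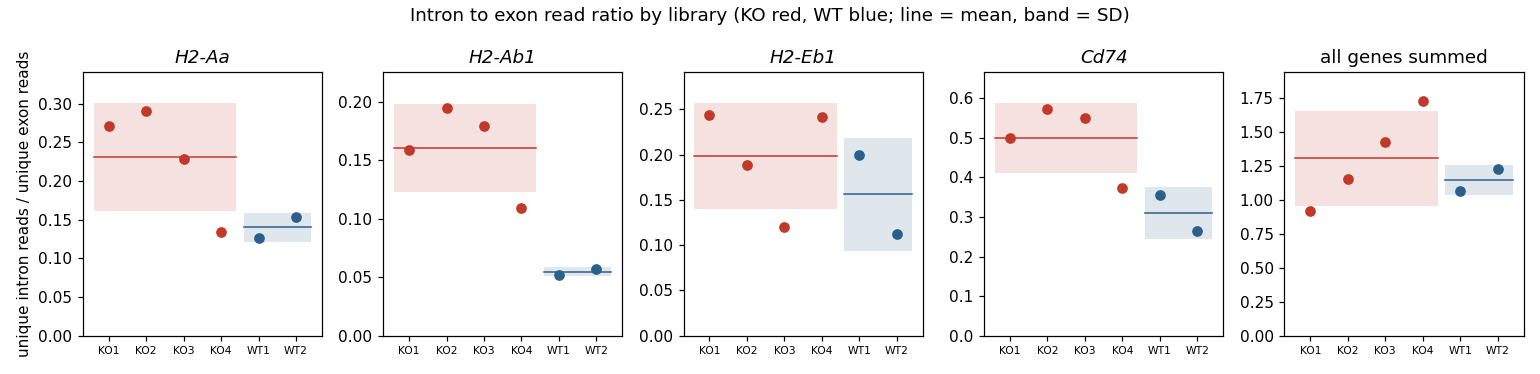
Unique intron reads over unique exon reads in each library (linear axes from 0) for H2-Aa, H2-Ab1, H2-Eb1, Cd74 and all genes summed, KO in red and WT in blue, with group means and SD bands. H2-Ab1 and Cd74 lie above WT in all 4 KO libraries, whereas the sum over all genes overlaps.

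The 10 genes did not vary as 1 block across the 6 libraries. As a description over 6 libraries, whose depth all genes share, Pearson's r of log2(CPM + 1) was 0.93 between H2-Aa and Ciita, 0.85 between H2-DMb1 and H2-Ob, 0.85 between H2-Ab1 and H2-Eb1 and 0.84 between H2-Eb1 and Cd74. It was 0.19 between H2-Aa and Cd74, -0.54 between H2-Aa and H2-DMb1 and -0.72 between H2-Ab1 and H2-DMb2. These pairs are examples and not a ranking. H2-Ea-ps, at 0 in WT, had 0.86 with H2-Aa and -0.75 with H2-DMb1, and H2-Eb1 had -0.73 with H2-DMb2. Each r mixes the difference between genotypes with the spread within them. H2-DMb1 and H2-Ob were both lowest in KO replicate 3. The genes whose pattern was most like the mean log2 CPM of H2-Aa, H2-Ab1, H2-Eb1 and Cd74, among 10343 genes compared over the 6 libraries, were Arhgap26 (r = 0.99), Camsap2 (0.99), Fryl (0.99), Tmem18 (0.98), Wbp11 (0.98) and Zfand2a (0.98). Arhgap26 was at 62.3, 49.5, 42.6 and 56.8 CPM in KO and at 46.8 and 36.5 CPM in WT. Of the genes compared, 120 had r above 0.9.

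Of the 10 genes, 8 lie on chromosome 17 between 34135182 and 34344643 (mm10). The interval holds 9 other genes, of which 4 were tested: Psmb8 and Psmb9, subunits of the immunoproteasome, and Tap1 and Tap2, the peptide transporter, all of the class I pathway. None passed the threshold in edgeR's test or in DESeq2's, and 0 had an unadjusted p under 0.05, as 1185 of all 11969 tested genes (9.9%) did. Their log2 fold changes were -0.26 (SE 0.16, adjusted p = 0.625, edgeR) for Psmb8, -0.22 (SE 0.15, adjusted p = 0.649, edgeR) for Tap2, -0.22 (SE 0.16, adjusted p = 0.681, edgeR) for Tap1 and -0.27 (SE 0.21, adjusted p = 0.701, edgeR) for Psmb9. All 4 had overlapping libraries.

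Of 13 tested genes whose products bind class II promoters or join Ciita there, 0 passed the threshold in edgeR's test and 0 in DESeq2's, and 4 had an unadjusted p under 0.05, beside 9.9% of all tested genes. The log2 fold change was above 0 in 7 and below 0 in 6, with a median of 0.14. The acetyltransferase gene Ep300 was at 285.8, 313.3, 269.5 and 317.6 CPM in KO and at 230.1 and 192.8 CPM in WT, with no overlap (log2 fold change 0.49, SE 0.14, adjusted p = 0.342, edgeR). Its relative Crebbp had a log2 fold change of 0.42 (SE 0.14, adjusted p = 0.417, edgeR). Creb1, which binds the X2 box, had 0.47 (SE 0.16, adjusted p = 0.408, edgeR). The subunit genes of the X box factor, Rfx5, Rfxap and Rfxank, were read at 56.7 ± 10.9, 50.5 ± 5.89 and 17.5 ± 2.04 CPM in KO (SD, n = 4) and at 58.5 ± 6.83, 62.7 ± 1.52 and 19.4 ± 5.30 CPM in WT (SD, n = 2), and were named after their values were seen. Rfxap was below WT in every KO library. Of the 13 genes, 5 lay above WT without overlap and 2 below, beside 10% and 10.3% of all tested genes.

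Of 15 genes that induce or repress Ciita in other cells, 0 passed the threshold in either tool and 2 had an unadjusted p under 0.05, a share near the 9.9% of all tested genes. Values were above 0 on the log2 scale in 11 and below 0 in 4, with a median of 0.10. Ifngr2, a chain of the interferon-gamma receptor, was at 48.4, 35.5, 45.0 and 41.1 CPM in KO and at 29.7 and 24.2 CPM in WT, with no overlap (log2 fold change 0.66, SE 0.21, adjusted p = 0.390, edgeR). Pax5, the B-lineage factor, was at 241.3, 44.3, 49.2 and 88.1 CPM in KO and at 26.4 and 26.1 CPM in WT, highest by far in KO replicate 1 (log2 fold change 2.02, SE 0.63, adjusted p = 0.389, edgeR). Irf4, another lymphoid factor, was at 41.6, 17.9, 3.49 and 14.7 CPM in KO and at 5.23 and 9.38 CPM in WT, which overlap (log2 fold change 1.44, SE 0.73, adjusted p = 0.560, edgeR).

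Of 19 genes for endosomal processing and traffic of class II, 18 were tested, 0 passed in either tool and 2 had an unadjusted p under 0.05, again near the 9.9% of all tested genes. The log2 fold change was above 0 in 5 and below 0 in 13, with a median of -0.12. Ctss, the protease that trims the invariant chain, was at 79.1, 75.4, 52.0 and 74.4 CPM in KO and at 51.2 and 45.3 CPM in WT, KO above WT throughout (log2 fold change 0.54, SE 0.20, adjusted p = 0.434, edgeR). Cd63, a tetraspanin of late endosomes, was at 56.5, 84.3, 64.2 and 92.0 CPM in KO and at 108 and 109 CPM in WT, KO below WT throughout (log2 fold change -0.55, SE 0.20, adjusted p = 0.434, edgeR). Rab7, a GTPase of late endosomes, had a log2 fold change of -0.28 (SE 0.15, adjusted p = 0.576, edgeR).

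Of 8 co-stimulatory and adhesion genes of cells that present antigen, 6 were tested, 0 passed in either tool and 1 had an unadjusted p under 0.05, beside 9.9% of all tested genes. The log2 fold change was above 0 in 2 and below 0 in 4, with a median of -0.24. Pdcd1lg2, a ligand of the receptor PD-1, had 11, 16, 11 and 5 counts in KO and 40 and 23 counts in WT (log2 fold change -1.51, SE 0.53, adjusted p = 0.423, edgeR). Icam1, an adhesion molecule, had a log2 fold change of -0.36 (SE 0.17, adjusted p = 0.542, edgeR) and Cd48 one of 0.65 (SE 0.48, adjusted p = 0.696, edgeR). Of the co-stimulatory genes proper, Cd86 was at 10.3, 12.1, 10.8 and 9.79 CPM in KO and at 14.04 and 14.33 CPM in WT. Its KO libraries were below WT throughout (log2 fold change -0.39, SE 0.31, adjusted p = 0.713, edgeR), as in 10.3% of all tested genes. Icosl overlapped, with a log2 fold change of 0.23 (SE 0.42, adjusted p = 0.885, edgeR). Cd80 and Cd40 were at 2.20 CPM or lower in every library.

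Markers of the cells best known for class II were measured in the same libraries. The 15 B-lineage genes summed to 1197, 203.9, 267.7 and 426.3 CPM in KO replicates 1 to 4 and to 168.5 and 243.0 CPM in WT. All 14 tested had a log2 fold change above 0, with a median of 1.25, 4 had an unadjusted p under 0.05, beside 9.9% of all tested genes, and 0 passed in edgeR or DESeq2. KO replicate 1 stood apart with the highest sum, while Ms4a1, a gene of mature B cells, was at 1.47 CPM or lower in every library. In that library H2-Ob, H2-Ab1, H2-Eb1 and Ciita were at their highest and H2-DMb2 at its lowest. Without it the log2 fold change was 0.65 for H2-Aa, 0.33 for H2-Ab1, 0.02 for H2-Eb1, 0.06 for Cd74, -1.73 for H2-DMb1 and -0.97 for H2-Ob, and the genes without overlap numbered 6, with H2-DMa and H2-Ob added below WT. With that library left out, 26.9% of all tested genes were without overlap.

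The 12 monocyte and macrophage genes summed to 231.8, 318.9, 221.7 and 1068 CPM in KO and to 290.7 and 285.5 CPM in WT. Lyz2 made up 896.5 CPM of the sum in KO replicate 4. Cd74 was highest in that library, and so was H2-Ea-ps, at 23.0 CPM beside 22.3 CPM in KO replicate 3. The same library had the lowest H2-Aa of the KO libraries, at 76.8 CPM, and the lowest H2-DMa of all libraries, at 57.3 CPM. All 9 monocyte and macrophage genes tested had a log2 fold change above 0, with a median of 0.82. Of them, 0 passed in edgeR or DESeq2 or had an unadjusted p under 0.05. The 12 dendritic cell genes summed to 217.5, 239.4, 206.6 and 171.8 CPM in KO and to 201.0 and 162.3 CPM in WT, most of it Runx2. Of the others, Zbtb46 was at 6.46, 14.8, 12.2 and 24.5 CPM in KO and at 16.5 and 15.1 CPM in WT, Itgax reached 6.86 CPM, Clec9a 6.25 CPM and Ccr7 7.67 CPM, and the remaining 7 were each at 3.92 CPM or lower. Of 5 tested, 3 had a log2 fold change above 0, with a median of 0.24, and 0 passed in edgeR or DESeq2 or had an unadjusted p under 0.05. The 10 T and NK genes summed to 49.4, 38.4, 41.2 and 47.0 CPM in KO and to 21.8 and 22.7 CPM in WT. Of 4 tested, 3 had a log2 fold change above 0 and 1 below, with a median of 0.84. Of the 4, 2 had an unadjusted p under 0.05, beside 9.9% of all tested genes, and 0 passed in edgeR or DESeq2. Cd4 was at 19.2, 11.9, 17.8 and 16.2 CPM in KO and at 3.58 and 7.03 CPM in WT (log2 fold change 1.60, SE 0.41, adjusted p = 0.301, edgeR). Nkg7 was at 21.6, 12.3, 13.6 and 19.6 CPM in KO and at 7.43 and 9.64 CPM in WT (log2 fold change 0.97, SE 0.37, adjusted p = 0.440, edgeR). Ncr1 was at 1.47 to 3.76 CPM in KO and 0 in both WT libraries. Cd4, Nkg7 and Ncr1 lay above WT in every KO library, as 10% of all tested genes did. The T cell receptor complex genes Cd3e, Cd3g and Cd3d were at 3.30 CPM or lower. The part of these other cell types in the class II values was not tested.

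**Figure D5:**
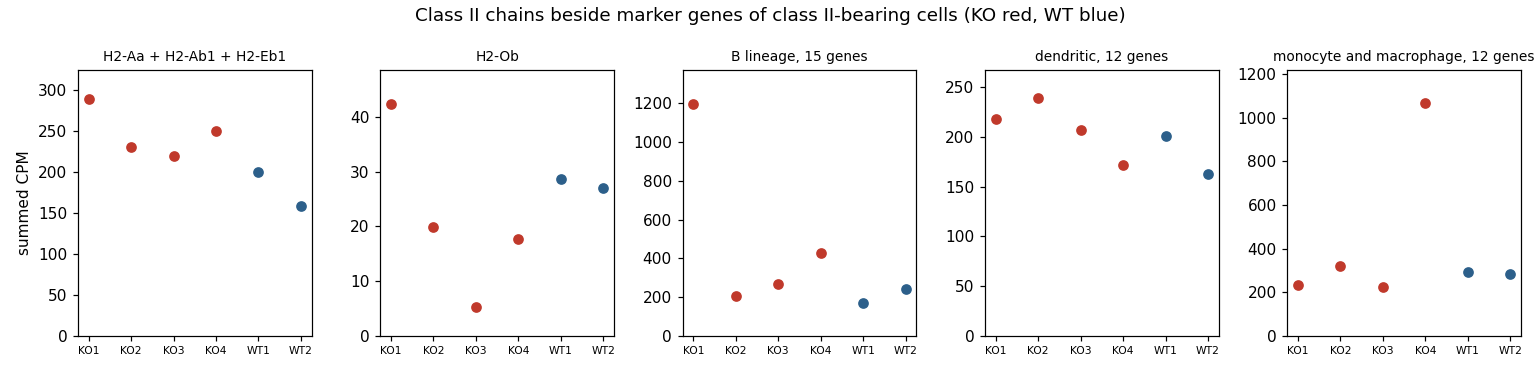
Summed CPM (linear axes from 0) of the 3 protein-coding chains, CPM of H2-Ob, and summed CPM of the B-lineage, dendritic and monocyte and macrophage marker lists in each library, KO in red and WT in blue. KO replicate 1 is highest for the chains at 289, for H2-Ob at 42.4 and for the B-lineage list at 1197, and KO replicate 4 is highest for the monocyte list at 1068.

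In the authors' deposited table, 76 genes had a corrected p under 0.05, of which 1, H2-Ea-ps, belongs to the class II set. The authors' deposited table gives H2-Aa a signed fold of 1.62, H2-DMb1 one of -2.98 and Cd74 one of 1.06, positive where KO is higher, with corrected p-values of 0.923, 0.722 and 1.0.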

How the data were processed

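Libraries were made with a strand-marking kit from RNA taken up in a phenol-based reagent, per the labels' protocols. Per the submitters' processing notes the build is mm10. The sources used here do not give the aligner, the counter or its use of strand. In the 1 table that the authors deposited (51826 genes), the expression values are raw read counts per gene, per the file headers, and 100% of them equal the unique exon reads plus the junction reads not placed uniquely. Counts of unique and total exon, junction and intron reads and exon length, all as the authors deposited them, were used too. The p-value, corrected p-value and signed fold score of the authors' own test were copied from the deposited table. The table's other 48 columns of per-library values were left aside. Starts in the table were raised by 1.

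The 10 genes, the pathway lists and the marker lists were chosen with earlier results of these data known. The test was edgeR's quasi-likelihood test (version 4.0.16, R 4.3.3, limma 3.58.1) on the expression counts of all 6 libraries, with filterByExpr, TMM and no term but genotype. Benjamini-Hochberg adjustment ran over the 11969 genes kept, with a threshold of 0.05. CPM uses TMM-scaled library sizes. A fold against a group at 0 is a lower bound at 3 counts over that group, from the mean KO CPM, and covers counting error only. An exact two-sided permutation test of 2 against 4 libraries cannot go below 0.0667, so none was run. Intron ratios were taken for genes with at least 10 unique exon reads in every library and 60 intron reads in all. The scripts were tested on simulated data. The text names all 10 genes, the 3 genes of smallest p and any past the threshold in each pathway list and in the chromosome 17 interval. It also names the 6 genes most like the mean log2 CPM (prior count 2) of H2-Aa, H2-Ab1, H2-Eb1 and Cd74, among tested genes that average 5 CPM or more and have no predicted name. The remaining interval gene, H2-Oa, H2-Eb2, Cd86, Icosl, Cd80, Cd40, the RFX genes and single markers were added after their values were seen. Of the table's gene IDs, 51633 are in GENCODE M21, 48589 at the same position. Positions printed are those of the table. Promoter windows are RefSeq's on GRCm38.p6. Alternatives were DESeq2 size factors, the DESeq2 1.42.0 Wald test, no filter, unique or total exon reads, each library left out, KO replicates 3 and 4 left out together, and the replicate number as a block. Tables used pandas 2.3.3 and figures matplotlib 3.10.9.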

Additional observations from a re-analysis of the deposited data

How the results depend on the processing

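Over 13 alternatives, 117 fold changes of the 9 genes read in both genotypes were recomputed. Of these, 114 moved by less than the spread between replicates; the 3 that moved by more were of Ciita, at 0.22 with total exon reads, 0.78 without WT replicate 1 and 0.27 without WT replicate 2. A turn of sign occurred in 5, all near 0: Cd74 without KO replicate 4 (-0.001) and without WT replicate 2 (-0.011), H2-Eb1 without WT replicate 2 (-0.041), and H2-Ob without KO replicates 3 and 4 (0.168) and with the replicate block (0.079). The genes past the threshold, 19 in the main analysis, numbered 87 with the DESeq2 Wald test, 307 with no filter, 33 without KO replicates 3 and 4, and between 2 (without WT replicate 1) and 30 (without KO replicate 4) with 1 library left out. Class II genes past the threshold numbered 3 with no filter (H2-Ea-ps, H2-DMb1 and H2-Aa). In that setting 307 of 18189 genes tested passed, against 19 of 11969 in the main analysis, so calls rose over all genes. With any 1 KO library left out the number was 1, H2-Ea-ps. The fold bound of H2-Ea-ps was 22.6 without WT replicate 1 and 21.3 without WT replicate 2; a lone WT library is then assumed to vary as the KO libraries do. With no filter, 1 pathway gene, Pax5, passed. The cause of these shifts was not tested. Class II genes without overlap between genotypes, 4 in the main analysis beside 20.3% of all tested genes, numbered 3 to 5 with all 6 libraries (15.7% to 20.3%), 4 to 6 with 1 KO library left out (25.5% to 29.4%), 6 without either WT library (45.5% and 46.8%) and 4 without KO replicates 3 and 4 (40.8%), so the share over all genes rose as libraries were dropped.

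The KO and WT libraries share the numbers 1 and 2, but the labels do not say what a number marks. Over 11969 genes the difference between replicates 1 and 2 in KO correlated at -0.094 with that in WT. With only 1 such difference per genotype, this value cannot tell whether libraries of the same number belong together. With the replicate block, in the 4 libraries numbered 1 and 2, 34 genes passed.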
